A study of Gossypium hirsutum with 6 samples.

Results

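The genes described here were the rows of the leaf expression table of upland cotton (Gossypium hirsutum) whose pathway annotation carries the KEGG tag 00280, valine, leucine and isoleucine degradation. There were 203 such genes of 72761 in all, chosen by annotation and not by their levels. RNA was sequenced from leaves in 3 libraries of transgenic lines titled with FPF1 (flowering promoting factor 1) and in 3 libraries of the wild type, titled W10. No age, time of harvest, promoter or number of lines is given in the labels, nor whether the replicates were separate plants, so a p here covers no more than the spread of these libraries, some of it perhaps technical. Whether the transgenic lines carry more or less FPF1 is not specified there either. Levels are in FPKM, fragments scaled to the length of the transcript and to the library's mapped fragments. Of a family of 12 FPF1-like genes, only GH_D02G0524 is given here. It was at 133, 199 and 195 FPKM in the transgenic libraries, against 0, 0 and 0.467 FPKM in the wild type.

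The branched-chain amino acids leucine, valine and isoleucine are broken down in plants mainly in mitochondria. A transaminase removes the amino group, the branched-chain 2-oxoacid dehydrogenase complex attaches the carbon skeleton to coenzyme A, and separate sets of enzymes then shorten the skeletons of leucine and of valine. Isovaleryl-CoA dehydrogenase of this route passes electrons through an electron transfer flavoprotein to the respiratory chain. In Arabidopsis leaves the pathway is known as a source of respiratory fuel in darkness and carbon shortage.

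The tag was wider than the pathway. Of the 203 genes, 107 were described as an enzyme of the pathway, 51 were described as another protein, and 45 had no description beyond hypothetical or uncharacterized protein. The other proteins were 19 organellar RNA editing factors, 17 protein kinases, 10 CROWDED NUCLEI proteins of the nuclear envelope, 3 F-box proteins and 2 chloroplast stem-loop binding proteins. They shared a KEGG ortholog number with an enzyme of the pathway, as the CROWDED NUCLEI proteins did with the branched-chain aminotransferases (K00826). Levels were high enough to test, with 1 FPKM or more as the mean of a group, for 163 members, namely 101 described enzymes, 43 other proteins and 19 undescribed genes. The other 40 were not tested, and 24 of these were listed at 0 in every library, among them 20 undescribed genes.

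Each library had 52037 to 53560 genes above 0, and relative depth, estimated from the smallest values, was 0.990 to 1.14 in the transgenic and 1.19 to 1.28 in the wild-type libraries, with the number of reads unknown. Leaf mesophyll markers (chlorophyll a-b binding proteins and small RuBisCO subunits, 52 genes, 2 at 0 throughout) summed to 2241 to 2875 FPKM in the transgenic libraries, against 3837 to 5320 FPKM in the wild type. Markers of xylem secondary walls (33 genes, 7 at 0 throughout) summed to 45.3 to 95.3 FPKM in the transgenic libraries, against 11.0 to 12.5 FPKM in the wild type. Markers of dividing cells (21 genes) summed to 151 to 175 FPKM in the transgenic libraries, against 188 to 194 FPKM in the wild type, and those of floral organs (111 genes) to 332 to 388 FPKM in the transgenic libraries, against 335 to 362 FPKM in the wild type. The seed list (87 genes) holds late embryogenesis abundant proteins that leaves also express, and its sums overlapped, with 23894 to 33621 FPKM in the transgenic libraries and 24006 to 31136 FPKM in the wild type. Gene by gene, 38 of its 50 tested genes had negative differences and 12 positive ones (median log2 fold change -0.83). In 19 of them (38.0%, against 9.51% of all tested genes) the transgenic libraries lay below the wild type with no overlap, and in 2 above it. The part of these marker differences in the results below was not tested. In bulk leaf RNA, fewer cells of a type and less RNA per cell cannot be told apart.

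Of the 101 described enzymes tested, 10 fell and 2 rose (limma on log2(FPKM + 1), two-sided, Benjamini-Hochberg adjusted p under 0.05 over all 43837 genes tested). The 10 falls comprised 2 branched-chain aminotransferases, 2 E1 alpha subunits of the 2-oxoacid dehydrogenase, 1 isovaleryl-CoA dehydrogenase, 1 beta subunit of methylcrotonoyl-CoA carboxylase, 1 methylmalonate-semialdehyde dehydrogenase, 1 aldehyde dehydrogenase of family 7 and 2 alanine--glyoxylate aminotransferases. Both rises were genes similar to 3-hydroxyisobutyryl-CoA hydrolase. Over all 163 tested members, 14 fell (8.59%) and 8 rose (4.91%), 22 in all (13.5%). Of all tested genes 1.78% fell, 3.92% rose and 5.7% were called either way. Groups did not overlap, with the transgenic libraries lower, in 41 members (25.2%), against 9.51% of all tested genes, and with the transgenic libraries higher in 34 members (20.9%), near the 20.6% of all tested genes.

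The pathway as a whole did not move one way. The median log2 fold change was 0.017 over the 163 members, with 79 below 0. Over all 43837 tested genes the median was 0.08, with 17276 below 0. After median-of-ratios scaling it was -0.071 over the members, with 100 below 0. Summed over the 107 described enzymes, levels were 3092, 2785 and 2733 FPKM in the transgenic libraries, against 3294, 3493 and 3324 FPKM in the wild type, and the groups did not overlap. Abundant genes set much of this sum. Of the 101 tested enzymes 51 had differences above 0, and 37 did after median-of-ratios scaling. Over all 43837 tested genes, 26561 had differences above 0 as deposited. The largest step sums, with no gene called, were hydratases (means of 587 FPKM transgenic, 731 FPKM wild type) and 3-ketoacyl-CoA thiolases (420 and 517 FPKM). The 51 other proteins summed to 753 to 788 FPKM in the transgenic libraries and 755 to 785 FPKM in the wild type, which overlapped.

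The calls depended on single libraries. Without transgenic 2 or without wild type 1, limma called none of the members, with smallest adjusted p of 0.0544 and 0.0549, while 289 and 420 genes were called over the whole table, in place of 2500. In those fits 47 of 164 and 50 of 163 tested members had an unadjusted p under 0.05, against 17.2% and 17.4% of all tested genes. Without transgenic 3, 3 members fell and 3 rose, and without wild type 2, 8 fell and 8 rose. Without a filter on low values 8 members fell, and without limma's trend and robust options 9 did. None of the 22 called members changed sign in any setting tried. Their groups do not overlap, so no setting but the 2 scalings could have changed a sign. The authors' deposited table does not name its test. At its q-value under 0.05, 25 of the 203 members were lower in the transgenic libraries and 12 higher. Over all genes listed, 2.76% were lower and 3.05% higher. Of the 22 members called here, 21 had a q-value under 0.05 in the authors' deposited table.

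**Figure D1:**
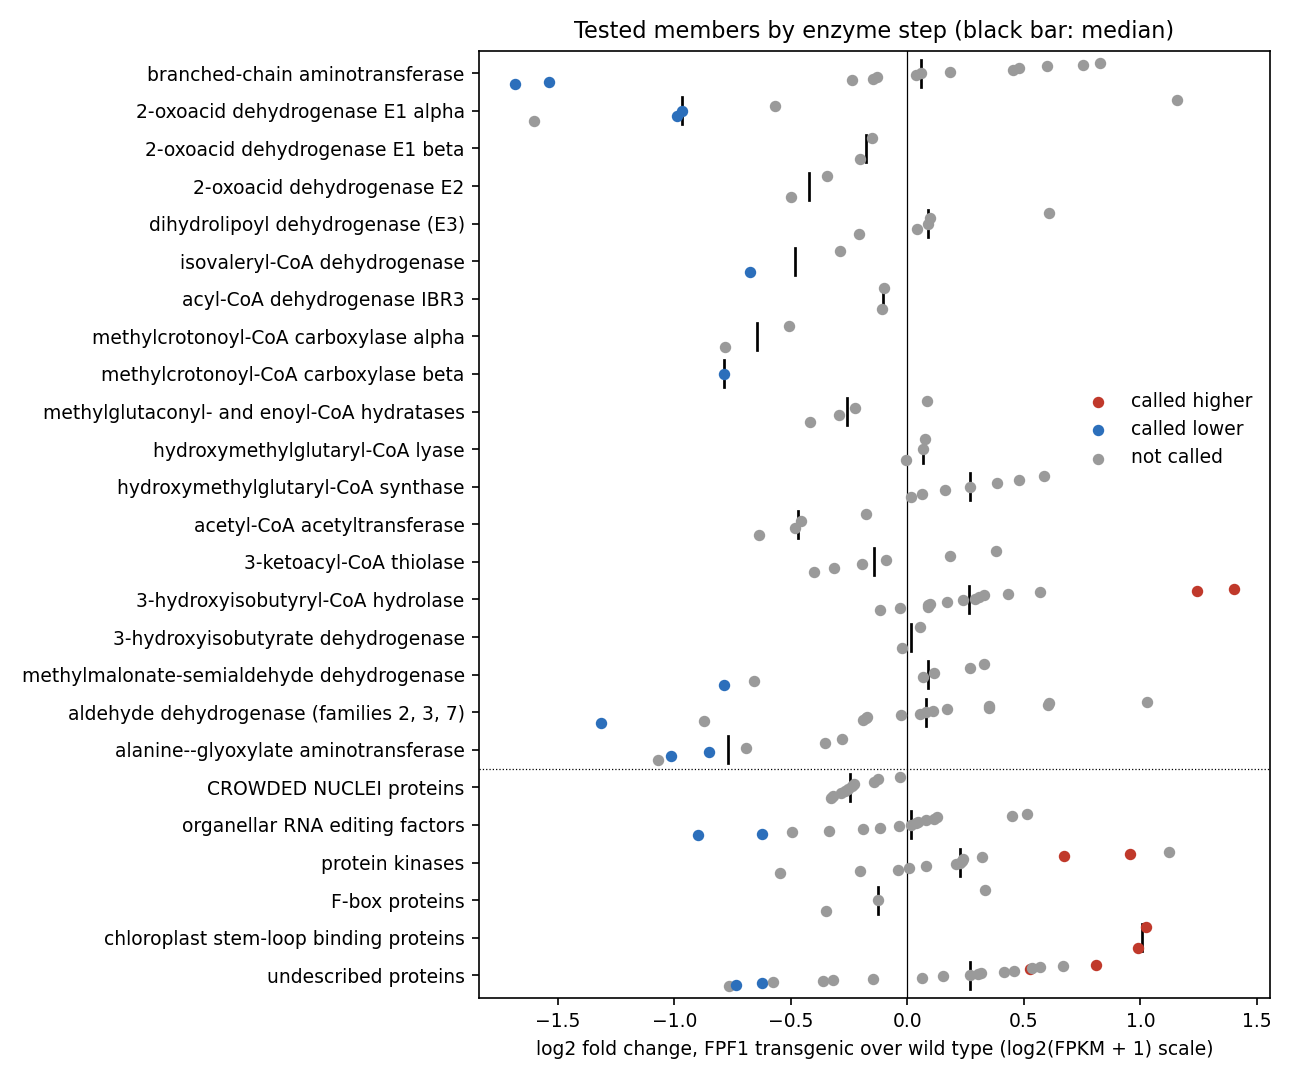
Each point is 1 tested member, placed by its log2 fold change (transgenic over wild type, log2(FPKM + 1) scale) on the x axis and by its enzyme step or protein kind on the y axis, with black bars at the medians. Blue points (14 members) fell, red points (8 members) rose and grey points did not pass the test; the dotted line separates described enzymes, above, from other and undescribed proteins.

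For transamination, the first step, the tag held 15 genes described as branched-chain-amino-acid aminotransferases, enzymes that move the amino group to 2-oxoglutarate. Aminotransferases 2 and 3 are described as chloroplastic, and none of the 15 as mitochondrial. The tag of branched-chain amino acid synthesis is carried by 49 members, and 49 have the ortholog number of the aminotransferases (K00826). Whether these genes serve breakdown or synthesis was not tested. A pair described as aminotransferase 2, chloroplastic-like, fell. GH_A05G2136 showed 29.3, 13.9 and 13.9 FPKM in the transgenic libraries, against 64.9, 66.0 and 49.5 FPKM in the wild type (log2 fold change -1.68, standard error 0.284, adjusted p = 0.0221). GH_D05G2168 had 20.4, 12.5 and 11.3 FPKM in the transgenic libraries, against 43.4, 45.2 and 41.2 FPKM in the wild type (log2 fold change -1.54, standard error 0.203, adjusted p = 0.0111). In both genes transgenic 1 was the highest of its group and still below every wild-type library.

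A second pair with the same description did not pass the test. GH_D05G2671, the most abundant aminotransferase gene, showed 113, 80.5 and 57.9 FPKM in the transgenic libraries, against 93.4, 94.1 and 78.5 FPKM in the wild type (log2 fold change -0.13, 95% interval -0.67 to 0.41). GH_A05G2650, named after its values were seen, had 52.7, 29.8 and 28.2 FPKM in the transgenic libraries, against 50.95, 48.8 and 29.6 FPKM in the wild type. The log2 ratio of the pair members on chromosome D05, GH_D05G2168 over GH_D05G2671, averaged -2.42 in the transgenic libraries and -1.01 in the wild type, and that of GH_A05G2136 over GH_A05G2650 on A05 averaged -0.948 in the transgenic libraries and 0.498 in the wild type. In both cases the groups did not overlap, and these ratios, chosen after the values were seen, carry no test. The 4 genes described as aminotransferase 3 had differences from 0.057 to 0.48 and none was called, with 1 of them below 0 after median-of-ratios scaling. The sum over all 15 genes overlapped between the groups, with 293 to 369 FPKM in the transgenic libraries and 344 to 390 FPKM in the wild type.

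The 2-oxoacid dehydrogenase complex, which commits the carbon skeletons to breakdown, was lowest, relative to the wild type, in its E1 alpha subunit. The 5 E1 alpha genes together summed to 38.9, 27.6 and 25.9 FPKM in the transgenic libraries, against 77.0, 59.3 and 63.1 FPKM in the wild type, a ratio of means of 0.463. GH_A05G4040 (alpha 2) showed 7.75, 5.197 and 6.60 FPKM in the transgenic libraries, against 14.9, 13.6 and 12.9 FPKM in the wild type (log2 fold change -0.99, standard error 0.149, adjusted p = 0.0157). GH_D04G0332, also alpha 2, had 7.46, 5.92 and 5.86 FPKM in the transgenic libraries, against 15.5, 13.8 and 11.3 FPKM in the wild type (adjusted p = 0.0175). These 2 genes were called, and their groups did not overlap.

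The most abundant E1 alpha gene, GH_D05G2420 (alpha 1), showed 20.99, 8.96 and 6.19 FPKM in the transgenic libraries, against 41.5, 27.8 and 35.1 FPKM in the wild type. Its difference of -1.60 on the log2 scale did not pass the test (adjusted p = 0.0575), with a wide spread in both groups. Of the 6 fits that left out 1 library, it passed only without transgenic 1 (adjusted p = 0.0102). Without transgenic 2 the adjusted p was 0.196. Another pair of alpha 1 genes, named after their values were seen, had differences of opposite sign. GH_A02G0747 had 1.74, 4.88 and 4.87 FPKM in the transgenic libraries, against 0.888, 1.03 and 1.22 FPKM in the wild type. GH_D02G0757 showed 0.943, 2.63 and 2.42 FPKM in the transgenic libraries, against 4.21, 3.20 and 2.58 FPKM in the wild type. Neither was called with all libraries (adjusted p = 0.0764 for GH_A02G0747). Of the 6 fits that left out 1 library, GH_A02G0747 was called only without transgenic 1 (adjusted p = 0.0141). Without transgenic 2 its adjusted p was 0.239. The log2 ratio of GH_A02G0747 over GH_D02G0757 averaged 0.657 in the transgenic libraries and -1.07 in the wild type, with no overlap.

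The other subunits of the complex did not pass the test. E1 beta, led by GH_D05G0010 with 54.3 to 61.4 FPKM in the transgenic libraries and 62.5 to 73.0 FPKM in the wild type, had differences of -0.20 and -0.15 in its 2 genes. The 2 genes of E2, the acyltransferase core, had differences of -0.50 and -0.34. For the more abundant of them, GH_A09G2583, the 48.2, 27.8 and 31.7 FPKM of the transgenic libraries overlapped the 56.6, 48.6 and 44.9 FPKM of the wild type (adjusted p = 0.194). Dihydrolipoyl dehydrogenase, E3, is shared with other 2-oxoacid dehydrogenases and with glycine decarboxylase. Its 5 genes had differences from -0.21 to 0.61 with none called. The 2 described as mitochondrial differed by 0.0905 and 0.0982. The other 3 are described as chloroplastic and span the whole range. The most abundant, GH_D09G0786, is one of these and had a 95% interval of -0.54 to 0.12.

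**Figure D2:**
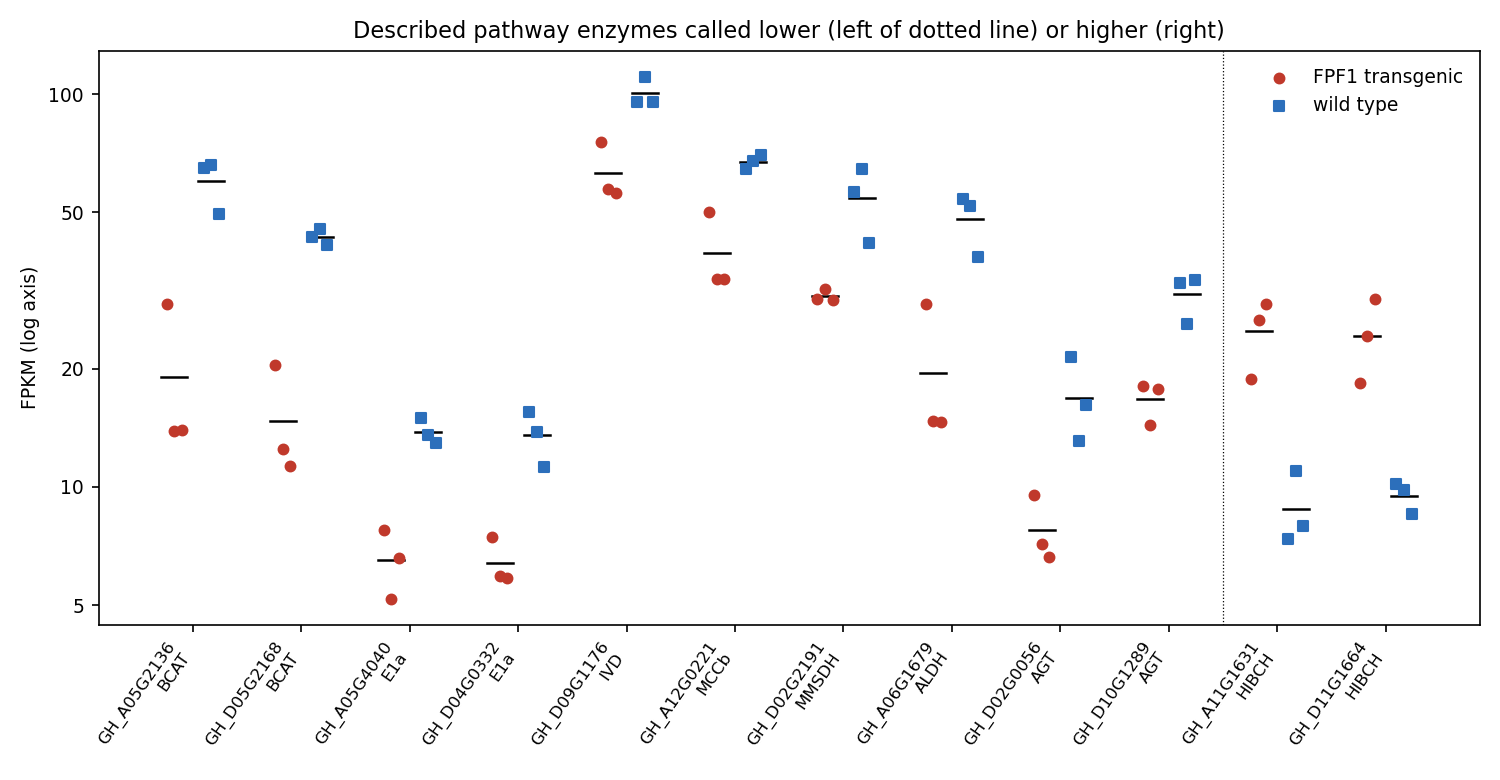
Levels in FPKM (log axis) of the 10 described enzymes that fell, left of the dotted line, and the 2 that rose, right of it, in each of the 3 transgenic (red circles) and 3 wild-type libraries (blue squares), with black lines at the group means. BCAT is branched-chain aminotransferase, E1a the E1 alpha subunit, IVD isovaleryl-CoA dehydrogenase, MCCb methylcrotonoyl-CoA carboxylase beta, MMSDH methylmalonate-semialdehyde dehydrogenase, ALDH aldehyde dehydrogenase, AGT alanine--glyoxylate aminotransferase and HIBCH 3-hydroxyisobutyryl-CoA hydrolase-like; in none of the 12 do the groups overlap.

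On the leucine branch, isovaleryl-CoA dehydrogenase and methylcrotonoyl-CoA carboxylase, a biotin enzyme, had negative differences at all 5 described genes, as deposited and after both scalings, and 2 of them fell. GH_D09G1176, the more abundant of the 2 isovaleryl-CoA dehydrogenase genes, had 75.7, 57.3 and 56.1 FPKM in the transgenic libraries, against 95.6, 111 and 95.3 FPKM in the wild type (log2 fold change -0.67, standard error 0.142, adjusted p = 0.0409). GH_A09G1218 differed by -0.29, with 37.6 to 38.8 FPKM in the transgenic libraries and 43.4 to 54.5 FPKM in the wild type, and was not called (adjusted p = 0.177).

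The described beta subunit of the carboxylase, GH_A12G0221, showed 50.2, 33.9 and 33.8 FPKM in the transgenic libraries, against 64.7, 67.4 and 69.9 FPKM in the wild type (log2 fold change -0.79, standard error 0.162, adjusted p = 0.0384). The undescribed gene GH_D12G0235, which carries the same KEGG ortholog (K01969), fell with it, at 46.6, 35.4 and 35.1 FPKM in the transgenic libraries, against 59.2, 56.9 and 64.7 FPKM in the wild type (adjusted p = 0.0434). The alpha subunit gene GH_A08G0717 had 31.5, 20.7 and 16.7 FPKM in the transgenic libraries, against 35.9, 40.3 and 40.8 FPKM in the wild type, and was not called (adjusted p = 0.0789). Of the 6 fits that left out 1 library, it was called only without transgenic 1 (adjusted p = 0.0186). That was the transgenic library nearest to the wild type at this gene. Without transgenic 2 the adjusted p was 0.236. The alpha subunit summed to 63.4, 40.6 and 36.4 FPKM over its 2 genes in the transgenic libraries, against 68.5, 76.0 and 73.0 FPKM in the wild type, with no overlap.

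The last leucine steps gave no call. The 3 genes of hydroxymethylglutaryl-CoA lyase, which splits the final intermediate into acetoacetate and acetyl-CoA, had differences from -0.0057 to 0.074, all below 0 after median-of-ratios scaling. The lead gene, GH_D11G3503, showed 30.6, 29.0 and 27.6 FPKM in the transgenic libraries and 26.6, 25.4 and 31.2 FPKM in the wild type (95% interval -0.19 to 0.33 on the log2 scale). The 7 tested genes of hydroxymethylglutaryl-CoA synthase, an enzyme of the mevalonate route that the pathway map also lists, had differences from 0.014 to 0.58 and none was called. After median-of-ratios scaling 2 of them were below 0.

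Hydratases, thiolases and acetyltransferases, which the pathway shares with fatty acid breakdown and other routes, gave no call. The most abundant member of all, GH_A02G0828 (enoyl-CoA hydratase 1, peroxisomal), had 447, 409 and 342 FPKM in the transgenic libraries, against 448, 459 and 562 FPKM in the wild type (log2 fold change -0.29, adjusted p = 0.274). The peroxisomal 3-ketoacyl-CoA thiolase GH_D10G1571 showed 274, 224 and 203 FPKM in the transgenic libraries, against 273, 286 and 367 FPKM in the wild type (adjusted p = 0.192). The 4 cytosolic acetyl-CoA acetyltransferases, which join or split acetoacetyl-CoA, had differences from -0.64 to -0.18. Their sum was 77.5 to 91.8 FPKM in the transgenic libraries, against 102 to 139 FPKM in the wild type. GH_A06G2377, the most abundant of them, had an adjusted p of 0.125. Both genes described as acyl-CoA dehydrogenase IBR3, a peroxisomal enzyme of indole-3-butyric acid conversion in Arabidopsis, had differences of -0.10 and -0.11, led by GH_A02G0523 (95% interval -0.36 to 0.16).

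**Figure D3:**
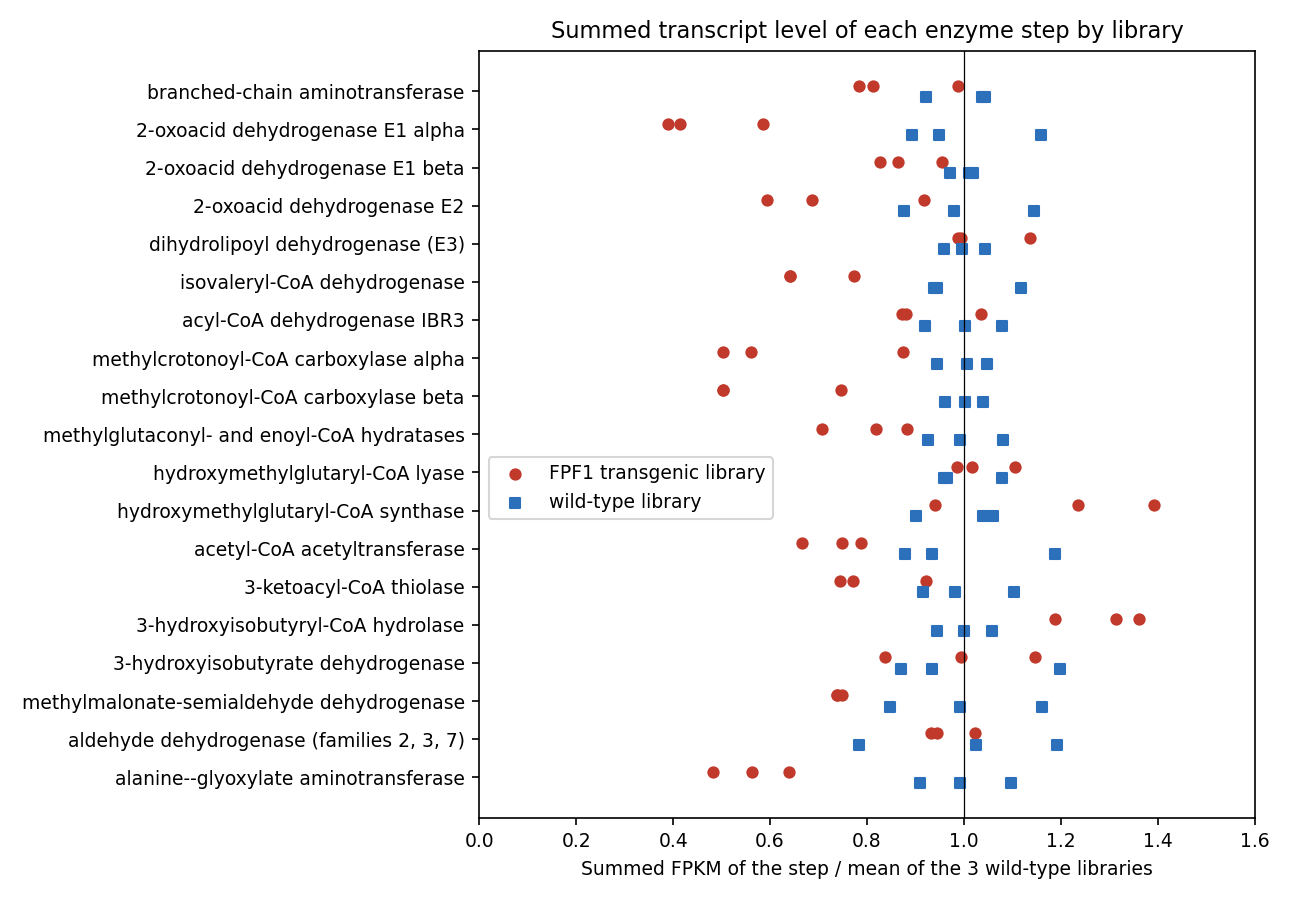
Summed FPKM of the described genes of each enzyme step (y axis) in each library, divided by the mean of the 3 wild-type libraries (x axis), for the transgenic (red circles) and wild-type libraries (blue squares). The E1 alpha subunit lies lowest, with a ratio of group means of 0.463, followed by alanine--glyoxylate aminotransferase (0.562) and methylcrotonoyl-CoA carboxylase beta (0.584). The highest is 3-hydroxyisobutyryl-CoA hydrolase (1.29), followed by hydroxymethylglutaryl-CoA synthase (1.19), whose groups overlap.

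On the valine branch, rises and a fall stood side by side. The 14 genes described as 3-hydroxyisobutyryl-CoA hydrolase or similar to it, an enzyme that frees the valine skeleton from coenzyme A, summed to 263, 291 and 301 FPKM in the transgenic libraries, against 209, 234 and 221 FPKM in the wild type. The 2 genes described as hydrolase-like protein 5 rose. GH_A11G1631 had 18.9, 26.5 and 29.3 FPKM in the transgenic libraries, against 7.38, 11.0 and 7.95 FPKM in the wild type (log2 fold change 1.40, standard error 0.200, adjusted p = 0.0134). GH_D11G1664 showed 18.4, 24.2 and 30.04 FPKM in the transgenic libraries, against 10.2, 9.81 and 8.53 FPKM in the wild type (log2 fold change 1.24, standard error 0.177, adjusted p = 0.0133). In both, transgenic 1 was the lowest of its group.

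Of the other hydrolase genes none was called. GH_D07G0377 (hydrolase-like protein 2) came next to the threshold, with 15.7 to 21.2 FPKM in the transgenic libraries and 11.4 to 13.2 FPKM in the wild type (adjusted p = 0.0524). The most abundant, GH_A08G0999 (hydrolase 1-like), differed by 0.089 with a 95% interval of -0.13 to 0.31. The 2 described genes of 3-hydroxyisobutyrate dehydrogenase, the next enzyme, differed by -0.022 and 0.052. For GH_D02G1095, the more abundant, the transgenic libraries at 9.54 to 13.9 FPKM overlapped the wild type at 9.93 to 14.5 FPKM.

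Methylmalonate-semialdehyde dehydrogenase, the last mitochondrial enzyme of valine breakdown, had 6 genes, and 4 of them lie side by side in 2 neighbouring couples by their identifiers. GH_D02G2191 fell, at 30.1, 31.9 and 29.9 FPKM in the transgenic libraries, against 56.5, 64.6 and 41.8 FPKM in the wild type (log2 fold change -0.78, standard error 0.160, adjusted p = 0.0372). Its neighbour GH_D02G2192, named after its values were seen, had 14.0, 12.4 and 11.7 FPKM in the transgenic libraries, against 11.6, 13.5 and 11.3 FPKM in the wild type. The log2 ratio of the first over the second averaged 1.21 in the transgenic libraries and 2.06 in the wild type. The A03 couple, GH_A03G2024 over GH_A03G2025, gave 1.25 in the transgenic libraries and 2.03 in the wild type. In each couple the groups did not overlap, again with no test. GH_A03G2024 itself showed 20.3, 20.9 and 24.3 FPKM in the transgenic libraries, against 33.7, 43.9 and 28.9 FPKM in the wild type (adjusted p = 0.0606).

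Alanine--glyoxylate aminotransferase 2 homologs are mitochondrial enzymes that the map lists beside the valine branch. They had 2 falls among 6 tested genes (33.3%, against 1.78% of all tested genes). In 5 of the 6 (83.3%, against 9.51% of all tested genes) the transgenic libraries lay below the wild type with no overlap. The other, GH_A09G2315, named after its values were seen, passed the filter through wild type 2 alone, with 0.156, 0.417 and 0.389 FPKM in the transgenic libraries, against 0, 3.06 and 0 FPKM in the wild type. GH_D10G1289 (homolog 2) had 18.0, 14.4 and 17.7 FPKM in the transgenic libraries, against 33.1, 26.1 and 33.7 FPKM in the wild type (log2 fold change -0.85, standard error 0.141, adjusted p = 0.0210). GH_D02G0056 (homolog 3) showed 9.53, 7.17 and 6.61 FPKM in the transgenic libraries, against 21.4, 13.1 and 16.2 FPKM in the wild type (log2 fold change -1.01, adjusted p = 0.0339). The undescribed gene GH_A10G1601 of the same KEGG ortholog (K00827) also fell, at 10.1, 8.79 and 12.3 FPKM in the transgenic libraries, against 16.5, 18.4 and 18.6 FPKM in the wild type (adjusted p = 0.0284). After median-of-ratios scaling 4 of the 6 were called.

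Aldehyde dehydrogenases, which oxidise aldehydes of many origins, had a fall in family 7. The single gene described as family 7 member B4, GH_A06G1679, fell, at 29.3, 14.7 and 14.6 FPKM in the transgenic libraries, against 54.1, 52.0 and 38.4 FPKM in the wild type (log2 fold change -1.32, standard error 0.273, adjusted p = 0.0399). The undescribed GH_D06G1699 of the same ortholog (K14085), the most abundant undescribed member, had 124, 90.3 and 83.8 FPKM in the transgenic libraries, against 176, 204 and 130 FPKM in the wild type, and was not called (adjusted p = 0.0792). The 10 family 3 genes summed to 131 to 139 FPKM in the transgenic libraries, against 69.4 to 118 FPKM in the wild type. Within this family GH_A05G0703, named after its values were seen, was at 51.7, 53.7 and 49.3 FPKM in the transgenic libraries, against 26.02, 35.2 and 16.5 FPKM in the wild type (adjusted p = 0.0549). The 6 family 2 genes overlapped as a sum, with 133 to 139 FPKM in the transgenic libraries and 127 to 188 FPKM in the wild type, and their lead gene GH_A12G2939 had a 95% interval of -0.28 to 0.39.

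By the compartment named in the description, 7 of 50 tested mitochondrial enzymes fell (14.0%, against 1.78% of all tested genes) and none rose. Their median was -0.13. Among 12 chloroplastic ones 2 fell, both aminotransferases. The 8 peroxisomal and 4 cytosolic enzymes gave no call, and the 27 with no compartment named gave 2 rises (7.41%) and 1 fall (3.7%). Over all members, 6 of 81 tested A-subgenome genes (7.41%) and 8 of 82 D-subgenome genes (9.76%) fell. Rises numbered 5 (6.17%) in A and 3 (3.66%) in D, the latter near the 3.92% of all tested genes.

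Members in matching places on the A and D chromosomes were compared as candidate pairs. Cotton carries 2 subgenomes, and 59 candidate pairs with both genes tested were matched by ortholog and by position on chromosomes of the same number. In 48 pairs both differences had the same sign, in 5 pairs both genes were called in the same direction, and in no pair in opposite directions. In another 5 pairs 1 gene was called. The 2 members had the same description, apart from isoform and likeness tags, in 48 of the 59 pairs, and 40 of these had the same sign. In 7 other pairs a member was undescribed, and in 4 the descriptions differed, as for an aldehyde dehydrogenase of family 3 matched with one of family 2. Across all 59 pairs Pearson's r of the log2 fold changes was 0.793, and across the 48 it was 0.795, a description only, since the pairs share the 6 libraries and reads of near-identical copies may be split between them.

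**Figure D4:**
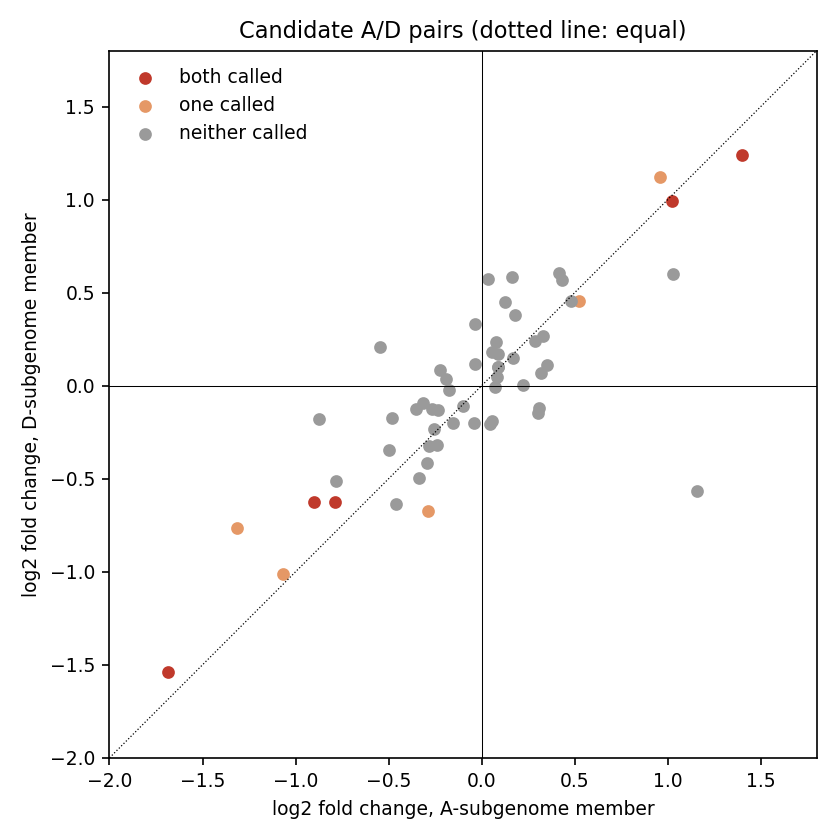
Log2 fold change (transgenic over wild type) of the A-subgenome member (x axis) and of the D-subgenome member (y axis) for the 59 candidate pairs with both genes tested; the dotted line marks equal values. The 5 pairs with both genes called (red) lie near the line, and the point farthest from it is the E1 alpha pair GH_A02G0747 and GH_D02G0757, at 1.16 and -0.57.

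Proteins that carry the pathway tag but are described as something else gave 4 rises (9.3%) and 2 falls (4.65%) among 43 tested. Of all tested genes 3.92% rose and 1.78% fell. Both genes for the chloroplast stem-loop binding protein of 41 kDa b, which binds chloroplast RNA, rose. GH_A11G3080 showed 33.4, 32.8 and 42.8 FPKM in the transgenic libraries, against 17.8, 15.4 and 18.7 FPKM in the wild type (log2 fold change 1.03, standard error 0.137, adjusted p = 0.0112). GH_D11G3108 had 28.2, 27.9 and 40.6 FPKM in the transgenic libraries, against 19.5, 12.0 and 15.8 FPKM in the wild type (adjusted p = 0.0405) and was called in none of the 6 fits that left out 1 library. Both share the ortholog number of the 3-hydroxyisobutyryl-CoA hydrolases, and with them make up 4 of the 8 rises.

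Organellar RNA editing factors are proteins needed for C-to-U editing of plastid and mitochondrial transcripts. Of 15 tested, 2 fell (13.3%, against 1.78% of all tested genes), both described as factor 9, chloroplastic-like. GH_A11G3163 showed 11.9, 10.7 and 10.8 FPKM in the transgenic libraries, against 22.2, 24.4 and 18.5 FPKM in the wild type (log2 fold change -0.90, adjusted p = 0.0125), and GH_D11G3190 had 12.8, 11.2 and 14.4 FPKM in the transgenic libraries, against 19.9, 19.99 and 20.6 FPKM in the wild type (adjusted p = 0.0273). In all 4 tested factor 9 genes the transgenic libraries lay below the wild type with no overlap. That held for 5 of all 15 factors (33.3%), against 9.51% of all tested genes. Of the 15 differences as deposited, 8 were positive and 7 negative. The most abundant factor, GH_A04G0429 (factor 8), had a 95% interval of -0.20 to 0.24.

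Among 13 tested protein kinases 2 rose (15.4%, against 3.92% of all tested genes). GH_A11G0694 (STY8-like) had 2.44, 2.83 and 3.16 FPKM in the transgenic libraries, against 0.982, 0.644 and 1.303 FPKM in the wild type (adjusted p = 0.0363). GH_D04G0564, like HT1, a kinase of stomatal movement in Arabidopsis, showed 13.0, 16.0 and 14.7 FPKM in the transgenic libraries, against 8.26, 10.2 and 7.82 FPKM in the wild type (adjusted p = 0.0353, and 0.0502 after median-of-ratios scaling). GH_D11G0726, also like HT1, stood just outside the threshold at 5.12, 4.58 and 9.15 FPKM in the transgenic libraries, against 1.87, 2.00 and 2.91 FPKM in the wild type (adjusted p = 0.05002). The most abundant kinase, GH_D09G2331, differed by 0.23 (adjusted p = 0.240).

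None of 10 CROWDED NUCLEI genes was called, though all 10 differences were negative, as deposited (from -0.33 to -0.031) and after both scalings. Their lead gene, GH_A02G1749, had a 95% interval of -0.41 to 0.13. None of 3 F-box genes was called either, and GH_D05G0751 had 15.1 to 19.1 FPKM in the transgenic libraries and 17.4 to 18.6 FPKM in the wild type. Beside the genes named above, 2 undescribed members rose. GH_A08G1791, with the ortholog number of the aminotransferases, had 22.6, 25.4 and 24.3 FPKM in the transgenic libraries, against 11.1, 13.8 and 15.3 FPKM in the wild type (adjusted p = 0.0191). GH_A10G0818 (K18660) showed 27.0, 29.4 and 26.7 FPKM in the transgenic libraries, against 19.8, 18.98 and 18.0 FPKM in the wild type (adjusted p = 0.0266). GH_A13G2401, with the ortholog number that E2 and the editing factors carry, came next to the threshold with 5.27 to 6.84 FPKM in the transgenic libraries and 3.17 to 4.16 FPKM in the wild type (adjusted p = 0.05297).

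The electron transfer flavoprotein takes electrons from isovaleryl-CoA dehydrogenase and from D-2-hydroxyglutarate dehydrogenase and hands them to its ubiquinone oxidoreductase. Genes of the flavoprotein, the oxidoreductase and D-2-hydroxyglutarate dehydrogenase had 3 falls (37.5%, against 1.78% of all tested genes) and no rise among 8 tested genes. Their median was -0.69, and all 8 differences were negative as deposited and after both scalings. This list and those below were chosen with earlier results of these data known, and their shares are descriptions without a test. GH_D10G1385, an electron transfer flavoprotein-ubiquinone oxidoreductase, had 7.64, 6.19 and 5.39 FPKM in the transgenic libraries, against 19.9, 19.5 and 15.2 FPKM in the wild type (log2 fold change -1.38, standard error 0.158, adjusted p = 0.00758). GH_A10G1507, of the same description, showed 6.68, 6.47 and 6.09 FPKM in the transgenic libraries, against 13.0, 12.4 and 10.2 FPKM in the wild type (adjusted p = 0.0174). GH_A10G0968, a D-2-hydroxyglutarate dehydrogenase, had 8.43, 8.07 and 9.79 FPKM in the transgenic libraries, against 15.6, 18.9 and 12.7 FPKM in the wild type (adjusted p = 0.0378). Without transgenic 2 all 3 calls were lost (adjusted p for GH_D10G1385 0.0525), and without wild type 1 only GH_D10G1385 was called (adjusted p = 0.0462).

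A further list joins other enzymes of amino acid breakdown with asparagine synthetases, known in Arabidopsis to be induced in carbon shortage. It had 2 falls (6.25%, against 1.78% of all tested genes) and no rise among 32 tested, with a median of -0.24. Both falls were genes described as probable glutamate dehydrogenase 3, which releases ammonium from glutamate. GH_A08G2405 showed 6.88, 4.47 and 3.34 FPKM in the transgenic libraries, against 33.4, 29.0 and 17.7 FPKM in the wild type (log2 fold change -2.23, standard error 0.287, adjusted p = 0.0105), and GH_D08G2411 had 2.66, 1.65 and 0.960 FPKM in the transgenic libraries, against 18.3, 12.0 and 6.65 FPKM in the wild type (adjusted p = 0.0205). The most abundant gene of the list, GH_D12G2614 (methionine gamma-lyase-like), had 1116, 1045 and 1003 FPKM in the transgenic libraries, against 1270, 1371 and 2986 FPKM in the wild type (adjusted p = 0.215).

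The list of branched-chain amino acid synthesis in the chloroplast leaves out the aminotransferases, which carry the pathway tag and are given above. It had 1 rise (2.94%, against 3.92% of all tested genes) and no fall among 34 tested genes. Its median was 0.068, and -0.022 after median-of-ratios scaling. The rise was GH_A02G0271, a dihydroxy-acid dehydratase, at 33.8, 36.0 and 32.2 FPKM in the transgenic libraries, against 23.2, 23.6 and 22.1 FPKM in the wild type (log2 fold change 0.54, adjusted p = 0.0226). GH_D10G0006, a ketol-acid reductoisomerase and the most abundant gene of synthesis, differed by -0.047, with 90.4 to 99.3 FPKM in the transgenic libraries and 94.8 to 101 FPKM in the wild type.

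Peroxisomal fatty acid beta-oxidation outside the pathway tag had 2 falls (6.67%) and 1 rise (3.33%) among 30 tested genes. The shares were 1.78% and 3.92% over all tested genes. The median of the list was -0.11. The falls were multifunctional proteins like MFP2, which carry the hydratase and dehydrogenase steps. GH_A09G0813 showed 27.95, 18.8 and 19.97 FPKM in the transgenic libraries, against 48.5, 50.6 and 42.2 FPKM in the wild type (log2 fold change -1.07, adjusted p = 0.0160), and GH_D09G0761 had 35.7, 29.9 and 30.3 FPKM in the transgenic libraries, against 44.4, 51.0 and 44.4 FPKM in the wild type (adjusted p = 0.0423). The rise was GH_A11G0258, acyl-coenzyme A oxidase 1-like, at 52.9, 56.5 and 51.5 FPKM in the transgenic libraries, against 39.1, 38.4 and 37.7 FPKM in the wild type (adjusted p = 0.0309). The most abundant gene, GH_D01G0200 (acyl-coenzyme A oxidase 3), had an adjusted p of 0.770. With transgenic 2 or wild type 1 left out, limma called none of the genes named from these last 3 lists.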

How the data were processed

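Poly-A RNA of leaves was sequenced, per the labels' protocols. The authors deposited 1 table of 72761 genes with FPKM in each of 6 libraries, a fold change that is the ratio of the mean FPKM, its log2, and, per the file headers, a p-value and a q-value of a test that is not named. The aligner, counting program, strand setting and genome build are not given in the sources used here. Values of 1e-04, the lowest listed, were read as 0. Depth is unknown, so no count model was used. Reads of homeologs and paralogs may be shared between identifiers.

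Differences (transgenic over wild type) were tested in R 4.3.3 by limma (3.58.1; trend and robust options) on values of log2(FPKM + 1). All genes reaching a group mean of 1 FPKM entered, with Benjamini-Hochberg adjustment over them and a threshold of 0.05. The method was tested on simulated data. The pseudocount makes fold changes of genes near 0 smaller than the ratio of levels. Members were grouped by their description, and step sums, marker sums and list medians are descriptions without a test. A and D pairs share an ortholog number and a chromosome number, lie within 200 positions in gene order and are mutual nearest. Ratios between 2 members, on log2 of FPKM + 1, are descriptions for 5 couples chosen after their values were seen.

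Named were every called member, the most abundant member of each step, the 3 uncalled members with the smallest adjusted p, and in 4 neighbouring lists the most abundant gene and up to 4 called ones. Members and lists were chosen with earlier results of these data known. Alternatives were 2 other pseudocounts, 2 other filters, 2 scalings, limma without trend, a replicate block, and leaving out each library. Sequences were not used here.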

Additional observations from a re-analysis of the deposited data

How the results depend on the processing

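The 22 called members kept their direction in every alternative, which their non-overlapping groups fixed beforehand for all but the 2 scalings. All 22 calls held with a pseudocount of 0.1 or 0.5, with a filter on the mean of all 6 libraries and with upper quartile scaling. With median-of-ratios scaling 21 held. Without a filter, 8 members and 5 described enzymes were lower, and without trend and robust estimation 9 and 6. Leaving out 1 library gave 0 to 8 rises and 0 to 17 falls among members, and 0 to 3 rises and 0 to 15 falls among described enzymes. Both counts of falls were 0 without transgenic 2 or wild type 1 and highest without transgenic 1. Falls were 3 and 1 without transgenic 3, and 8 and 6 without wild type 2. The cause was not tested.

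The median log2 fold change of members was -0.0706 after median-of-ratios and -0.0359 after upper quartile scaling, and -0.0446 to 0.034 with 1 library left out. The median of all genes was -0.00425 and 0.0309 after these scalings, against 0.0796.

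With the replicate number as a block, 5 members rose and 10 fell, and 12 of the 22 calls held. Same-numbered libraries deviated together with correlations of 0.0136, 0.0261 and 0.074 only, and not each library correlated best with its own number, so the numbers were not taken to pair the libraries.

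Members above 0 numbered 63 after median-of-ratios and 77 after upper quartile scaling, against 84 of 163 as deposited. Among the genes named by the rule, the uncalled ones that changed sign after median-of-ratios scaling were GH_D11G3503 (-0.025), GH_A08G0999 (-0.0048), GH_A12G2939 (-0.0402) and GH_A04G0429 (-0.078), and after upper quartile scaling GH_A12G2939 (-0.00088) and GH_A04G0429 (-0.038). With 1 library left out, the difference ranged from -0.368 to 0.108 for GH_D05G2671, -0.154 to 0.129 for GH_D02G1095, -0.0842 to 0.154 for GH_A12G2939, -0.024 to 0.0633 for GH_A04G0429 and -0.214 to 0.0418 for GH_D01G0200.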

Other observations

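Within the transgenic group, transgenic 1 stood apart at the falling enzymes, a pattern chosen after the values were seen. It was the highest of the 3 transgenic libraries in 9 of the 10 described enzymes that fell (90.0%), and in 379 of all 780 genes that fell (48.6%). At the aminotransferase gene GH_A05G2136 it stood at 29.3 FPKM against 13.9 in each of the other transgenic libraries, and at the family 7 aldehyde dehydrogenase GH_A06G1679 at 29.3 against 14.7 and 14.6. Without it, 15 described enzymes fell and 3 rose, in place of 10 and 2. Over all genes 583 fell and 1282 rose in that fit, in place of 780 and 1720. The FPF1-like transcript GH_D02G0524 was lowest of the group in transgenic 1, at 133 FPKM against 199 and 195. The part of that level in the enzyme levels was not tested.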
